A study of Mus musculus with 15 samples.

Results

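Transcripts of 9 genes of betaine, methionine and folate metabolism (Bhmt, Bhmt2, Mat2a, Mat2b, Ahcy, Mtr, Cbs, Cth and Shmt1) were followed in mouse cumulus cells, which enclose the oocyte in its follicle and feed it through cell contacts. The genes were chosen by their symbol in the authors' table of normalized values, because Bhmt was strongly higher in unexpanded cells of adults and lower after ovulation. The values of Bhmt are therefore given as a description, with no test. Of the 9 genes, 8 had a probe in that table, with 15 probes in all, and 7 had a probe measured well enough at every stage to be tested, among 12680 such genes on the array. Bhmt2 had no probe in the table and was read from the scanner output through its accession.

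The arrays held 3 stages with 5 pools of cells each, all from B6CBAF1/J mice with no transgene. NC1 cells came from the unexpanded complexes of large follicles in 3-week-old juveniles, around prophase I oocytes that were developmentally incompetent. C1 cells came from the same kind of complex in 8-week-old adults, around prophase I oocytes that were developmentally competent. C2 cells were taken from the oviduct of superovulated adults of 8 weeks, where the complexes had expanded, around metaphase II oocytes that were fully competent. Each pool came from a separate group of mice per the methods of the study. Oocytes were removed by pipetting at NC1 and C1 and with hyaluronidase at C2. Stage and age cannot be told apart between NC1 and C1, and stage, hormone treatment, site of collection and enzyme cannot be told apart between C1 and C2.

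These genes belong to the metabolism of 1-carbon units. Methionine is activated to S-adenosylmethionine (SAM), the methyl donor of most methyltransferases, and the homocysteine that remains after methyl transfer is either methylated back to methionine or passed to cysteine. The first route is served by separate methyl donors, since BHMT (betaine-homocysteine methyltransferase) takes the methyl group from betaine and MTR (methionine synthase) takes it from a folate carrier made in the folate cycle. BHMT is best known from liver and kidney, and SAM and folate metabolism are of interest in the follicle because the oocyte and the early embryo need methyl groups for DNA and histone methylation.

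Promoter sequence is shown for Bhmt, the gene with the widest range over the stages, for its neighbouring paralogue Bhmt2, which was not seen on any array, and for Cbs, the tested listed gene with the largest fall after ovulation. The lines give the 250 bases before the transcription start from RefSeq on GRCm38.p6, written 5′ to 3′ on the strand of the gene. Capitals mark the letters CAAGGTCA, AGGTCA or CACGTG.
Bhmt (chr13:93637759-93638008, minus strand): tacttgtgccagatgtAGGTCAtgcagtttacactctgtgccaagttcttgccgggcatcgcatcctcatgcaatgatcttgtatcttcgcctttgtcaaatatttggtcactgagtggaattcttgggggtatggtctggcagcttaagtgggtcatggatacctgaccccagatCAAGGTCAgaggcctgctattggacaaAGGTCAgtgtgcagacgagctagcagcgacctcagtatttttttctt
Bhmt2 (chr13:93674303-93674552, minus strand): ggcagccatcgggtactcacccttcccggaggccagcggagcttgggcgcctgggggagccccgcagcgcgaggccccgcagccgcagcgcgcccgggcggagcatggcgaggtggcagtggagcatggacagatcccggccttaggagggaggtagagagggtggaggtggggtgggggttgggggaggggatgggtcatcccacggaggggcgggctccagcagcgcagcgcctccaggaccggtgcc
Cbs (chr17:31637206-31637455, minus strand): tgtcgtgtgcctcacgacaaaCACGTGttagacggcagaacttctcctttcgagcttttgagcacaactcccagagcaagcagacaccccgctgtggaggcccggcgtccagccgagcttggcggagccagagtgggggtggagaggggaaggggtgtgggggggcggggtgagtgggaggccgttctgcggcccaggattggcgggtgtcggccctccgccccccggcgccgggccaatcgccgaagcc
The motif CAAGGTCA, which the orphan receptor NR5A1 of steroidogenic cells is known to bind, was present once in Bhmt, with its first base 74 bases before the start. It was held by 1.56% of 32851 promoters of the same length (300 bases, of which 50 follow the start), searched on both strands, and by no other of the 8 listed genes with a promoter in the table. The shorter AGGTCA, chosen after the sequences were seen and contained in CAAGGTCA, occurred at 3 places in Bhmt, starting 234, 72 and 47 bases before the start, and once in Ahcy on the reverse strand, 205 bases before the start. It was held by 16.3% of all promoters. Cbs held the E-box CACGTG 229 bases before its start, which 7.15% of all promoters held. The cAMP response element TGACGTCA (1.79% of all promoters) and the AP-1 letters TGAGTCA (5.2%) were in none of the 8 windows. The 250 bases of Bhmt had 48% G and C and those of Bhmt2 74%, against a median of 52.4% over all promoters. These matches describe the letters in the window and say nothing of binding in these cells.

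Levels are log2 intensities relative to the array's median over 17323 valid probes, so that 0 is the median valid probe. A probe was called seen on an array when the scanner software placed it well above background, and valid when it was seen on at least 4 of the 5 arrays of every stage. Probes differ in their response, so levels are compared between arrays and not between probes. The number of probes seen per array ranged from 18366 to 24493, the highest being C1 replicate 4, and arrays of 1 stage correlated between 0.976 and 0.996 over valid probes. All 10 markers of cumulus and granulosa cells were seen on all arrays, with a summed level (linear, in multiples of the array median) of 270 to 379 at NC1, 290 to 323 at C1 and 50.3 to 63.7 at C2. Arrays of 1 stage also differed in markers of other cells. At NC1, replicates 1 and 2 had the highest summed levels of red blood cell (333 and 439), theca and stroma (56.7 and 36.2) and oocyte markers (50.4 and 41.3). At C2, replicates 4 and 5 had summed oocyte marker levels of 0.715 and 0.808, against 13.5 to 17.1 in replicates 1 to 3.

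Bhmt was low in juvenile cells, high in adult unexpanded cells and intermediate after ovulation. Its brightest probe (A_55_P2105181) read -3.82, -3.39, -3.16, -3.10 and -3.34 in NC1 replicates 1 to 5, 2.95, 2.92, 2.18, 0.47 and 1.97 at C1, and -0.44, -1.26, -0.86, -1.86 and -2.27 at C2. No value of 1 stage reached into the range of another. The NC1 mean was -3.36 ± 0.28 (SD, n = 5), the C1 mean 2.10 ± 1.01 and the C2 mean -1.34 ± 0.74, which is 44.1-fold higher at C1 than at NC1, 10.8-fold lower at C2 than at C1 and 4.07-fold higher at C2 than at NC1. Fewer cells with the transcript and less transcript per cell cannot be told apart in these pools. C1 replicate 4, which had the most probes seen, had the lowest Bhmt level of its stage, and without it the log2 difference was 5.87 between C1 and NC1 and -3.85 between C2 and C1, in place of 5.46 and -3.44. Without C2 replicates 4 and 5, the log2 difference was -2.95 for C2 against C1 and 2.51 for C2 against NC1. The size of the difference between C1 and NC1 depended on the background correction. It was 4.55 after normexp background correction, in place of 5.46.

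**Figure D1:**
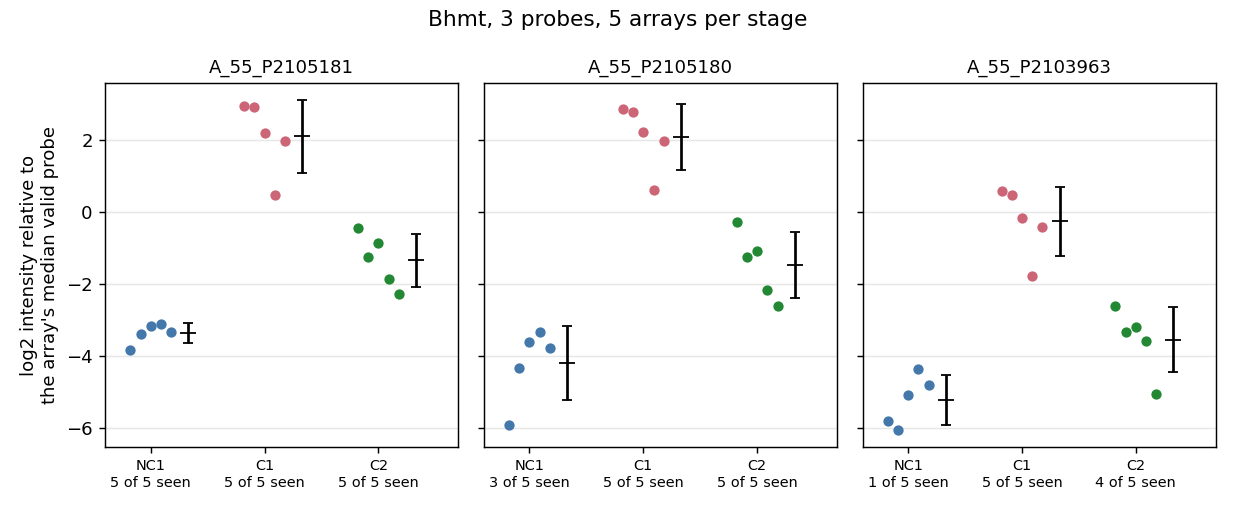
Level of Bhmt by 3 probes (log2 intensity relative to the median valid probe of the array) on each of the 5 arrays of NC1, C1 and C2, in replicate order, with the mean and SD of each stage as black bars. Below each stage stands the number of arrays on which the probe was well above background. All 3 probes are lowest at NC1 and highest at C1, and C1 replicate 4 is the lowest C1 array for each probe.

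The other Bhmt probes followed the same order of stages but were not valid, because NC1 cells were often at background. Probe A_55_P2105180 was seen on 3 NC1 arrays and on all C1 and C2 arrays, with means of -4.19, 2.08 and -1.48. Probe A_55_P2103963 was seen on 1 NC1 array, on all C1 arrays and on 4 C2 arrays, with means of -5.22, -0.26 and -3.55. Since NC1 arrays were partly at background, no size of the difference from NC1 is drawn from these probes. Between C2 and C1 they gave log2 differences of -3.56 and -3.29, the latter with 1 C2 array not well above background. The 4 slides each held all 3 stages, and within a slide the brightest probe differed by 3.63 to 6.76 between C1 and NC1 and by -5.21 to -2.03 between C2 and C1.

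Bhmt2, the paralogue that lies beside Bhmt and methylates homocysteine with S-methylmethionine, was not well above background on any of the 15 arrays. The signal of its probe lay between -7.03 and -5.09, so its level was not measurable at any stage. Other enzymes that handle betaine differed in whether they were seen. Chdh, the choline dehydrogenase that starts betaine synthesis, was seen on none of the 15 arrays. Dmgdh, which oxidizes the dimethylglycine left by BHMT, was seen on 4 NC1, 2 C1 and 1 C2 arrays. Aldh7a1, which turns betaine aldehyde into betaine, was seen on all 15 arrays. Its NC1 mean was 2.77, its C1 mean 2.94 and its C2 mean 3.26, and it rose by 0.49 between NC1 and C2 (adjusted p = 3.4e-04), a call lost under spike-in scaling (0.54, adjusted p = 0.133).

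The 3 genes on either side of Bhmt in the order of the RefSeq table were Homer1, Jmy and Gm6109 on one side and Bhmt2, Dmgdh and Arsb on the other. Those with a valid probe were Homer1, Gm6109 and Arsb, and none was called between C1 and NC1. Their log2 differences there, by the brightest probe, were -0.06 (adjusted p = 0.886, limma) for Homer1, a scaffold protein of synapses, -0.09 (adjusted p = 0.799) for Gm6109 and -0.05 (adjusted p = 0.953) for Arsb, a lysosomal sulfatase. Homer1 rose by 0.58 between C1 and C2 by that probe (adjusted p = 8.75e-04), while its other valid probes gave 0.12 to 0.34 and did not pass the test.

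Among the 6 listed genes that could be tested besides Bhmt, none was called between C1 and NC1 (limma, adjusted p below 0.01 over all valid probes), where 2.52% of all valid probes were called. None had an unadjusted p below 0.05 either, with or without moderated variances. Of all valid probes, 16.8% had an unadjusted p below 0.05 there by limma. By the brightest probe of each gene, the log2 differences ranged from -0.14 (Ahcy) to -0.02 (Cth), and their 99% intervals lay between -0.42 and 0.32 for Mat2a, -0.42 and 0.20 for Mat2b, -0.44 and 0.16 for Ahcy, -0.39 and 0.26 for Mtr, -0.95 and 0.75 for Cbs, and -0.40 and 0.37 for Cth. Cbs had the widest interval.

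Between C1 and C2, 5 of these 6 genes were called, 1 higher and 4 lower at C2, where 47.6% of all valid probes were called. Between NC1 and C2, 4 of the 6 were called, all lower at C2, where 51.5% of all valid probes were called. Over that span Cbs fell by 3.92 (adjusted p = 5.7e-09), Mat2a by 1.04 (adjusted p = 1.86e-06), Ahcy by 0.93 (adjusted p = 6.28e-07) and Cth by 0.93 (adjusted p = 1.26e-05). Mat2b, at 0.26 (adjusted p = 0.0437), and Mtr, at -0.33 (adjusted p = 0.0149), did not pass. The C1 arrays enter one of these comparisons and the NC1 arrays the other, while the C2 arrays enter both. With the median taken over all gene probes, or in the authors' table, 3 of the 6 were called between C1 and C2, 1 higher and 2 lower, and both of these scalings moved the median change of all valid probes to 0.33 on the log2 scale.

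**Figure D2:**
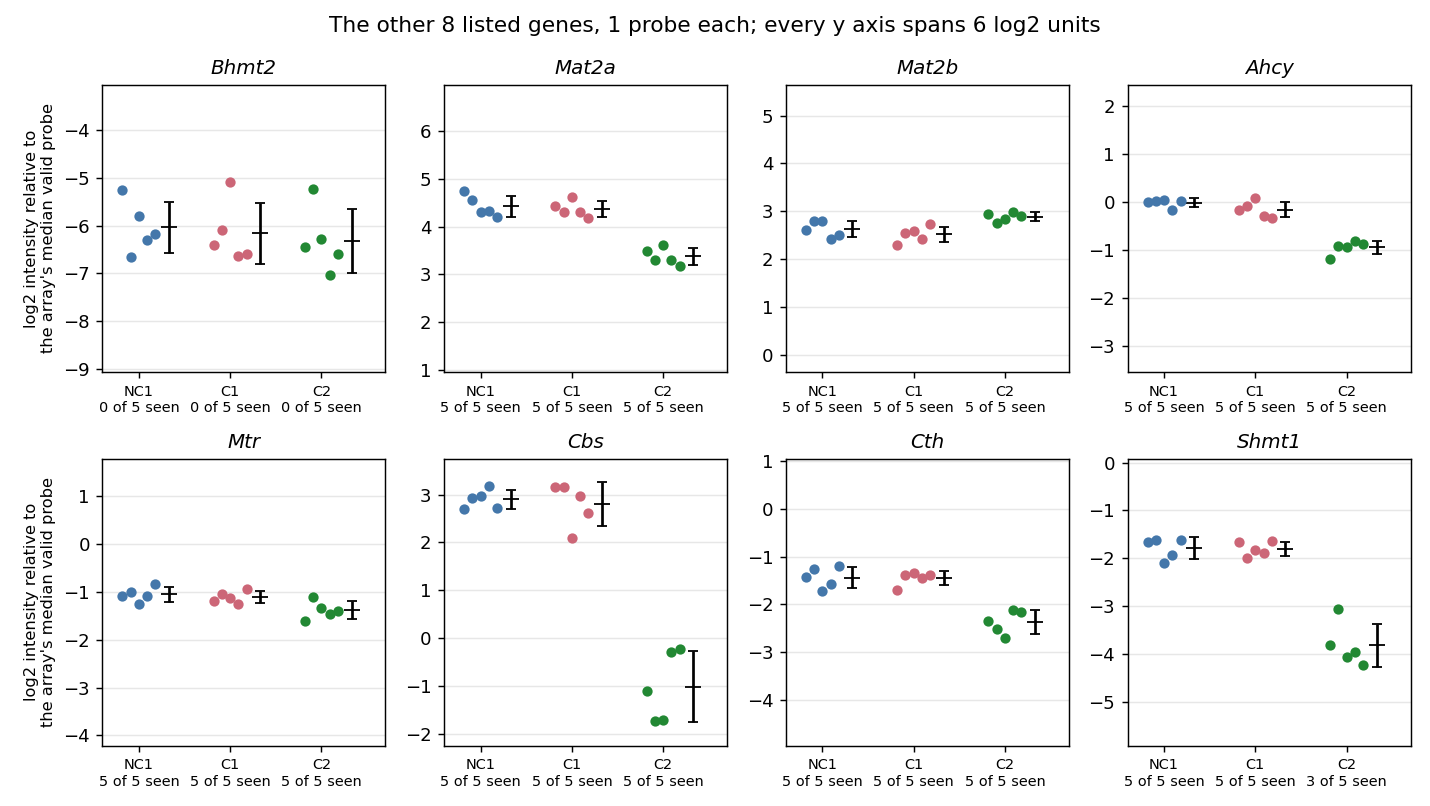
Levels of the other 8 listed genes (log2 intensity relative to the median valid probe of the array), 1 probe each, on the 5 arrays of each stage in replicate order, with stage means and SDs as black bars and the number of arrays seen below. Every vertical axis spans 6 log2 units. Cbs falls farthest at C2 among the tested genes, Shmt1 is seen on 3 of the C2 arrays, Mat2b is slightly higher there, and Bhmt2 is never well above background.

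Mat2a encodes the catalytic subunit of the enzyme that makes SAM outside the liver, and Mat2b encodes its regulatory subunit. Mat2a read 4.74, 4.56, 4.30, 4.32 and 4.19 at NC1, 4.44, 4.31, 4.62, 4.30 and 4.18 at C1, and 3.48, 3.30, 3.62, 3.31 and 3.18 at C2 by its brightest probe. All C2 arrays lay below all others, and Mat2a fell by 0.99 between C1 and C2 (99% interval -1.36 to -0.63, adjusted p = 3.95e-06), a 1.99-fold difference. Its dimmer probe gave -1.0 (adjusted p = 9.12e-04). Mat2b went the other way. It read 2.60, 2.79, 2.80, 2.43 and 2.51 at NC1, 2.29, 2.54, 2.59, 2.43 and 2.73 at C1, and 2.95, 2.75, 2.84, 2.99 and 2.90 at C2. The C2 arrays lay just above the C1 arrays but overlapped NC1. Mat2b rose by 0.37 between C1 and C2 (99% interval 0.06 to 0.68, adjusted p = 6.95e-03), a call that was lost with an adjusted p of 0.0516 under 75th percentile scaling, 0.0699 after quantile normalization, 0.473 under spike-in scaling, 0.0296 without the filter on dim probes and 0.0172 with the slide as a block. Leaving out C1 replicate 1, 2 or 4 or C2 replicate 1, 3, 4 or 5 also ended it, with log2 differences of 0.31 to 0.38, as did leaving out C2 replicates 4 and 5 together (0.33, adjusted p = 0.0445). Mat1a, the liver form of the catalytic subunit, was seen on 3 NC1, 2 C1 and no C2 arrays.

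Ahcy hydrolyses the S-adenosylhomocysteine that methyltransferases release and that inhibits them. By its brightest probe it read 0.00, 0.03, 0.04, -0.17 and 0.03 at NC1, -0.17, -0.07, 0.08, -0.28 and -0.33 at C1, and -1.18, -0.92, -0.93, -0.81 and -0.88 at C2. The C2 arrays lay below all others, and Ahcy fell by 0.79 from C1 to C2 (99% interval -1.09 to -0.49, adjusted p = 4.96e-06). The dimmer probes gave smaller differences, -0.54 (adjusted p = 9.73e-03) and -0.33 (adjusted p = 0.0633), with overlapping stages. The call of the brightest probe was lost with the median over all gene probes (-0.48, adjusted p = 0.0182) and in the authors' table (-0.48, adjusted p = 0.018).

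Mtr, which methylates homocysteine with methyl groups from folate, was not called in any comparison. It read -1.08, -1.0, -1.25, -1.08 and -0.83 at NC1, -1.18, -1.05, -1.12, -1.26 and -0.94 at C1, and -1.60, -1.10, -1.34, -1.47 and -1.40 at C2. The stages overlapped, and the log2 difference of -0.27 between C2 and C1 did not pass the test (99% interval -0.59 to 0.05, adjusted p = 0.046). Under 75th percentile scaling it was -0.39 and passed (adjusted p = 9.8e-03), whereas it was 0.04 with the median over all gene probes. Mtrr, the reductase that keeps MTR active, was seen on 4 NC1, 3 C1 and 1 C2 arrays and was not tested.

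Cbs and Cth carry out the successive steps of transsulfuration, from homocysteine through cystathionine to cysteine. Cbs was high in all prophase I arrays and low after ovulation. It read 2.71, 2.93, 2.98, 3.19 and 2.73 at NC1, 3.17, 3.17, 2.10, 2.98 and 2.61 at C1, and -1.11, -1.74, -1.72, -0.29 and -0.22 at C2. Every C2 array lay far below the lowest array of the other stages. The means were 2.91 ± 0.20 at NC1, 2.81 ± 0.46 at C1 and -1.02 ± 0.74 at C2, and Cbs fell by 3.82 from C1 to C2 (99% interval -4.67 to -2.98, adjusted p = 1.14e-08), or 14.2-fold. Within the 4 slides the difference was -4.33 to -3.22. C2 replicates 4 and 5, with the lowest oocyte marker level, had the highest Cbs and the lowest Bhmt levels of that stage, and without them Cbs fell by 4.33 (adjusted p = 2.8e-09). The part of the oocyte markers in these levels was not tested.

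Cth fell less than Cbs. It read -1.43, -1.27, -1.72, -1.57 and -1.20 at NC1, -1.70, -1.38, -1.35, -1.45 and -1.39 at C1, and -2.35, -2.51, -2.71, -2.11 and -2.15 at C2. All C2 arrays lay below the others. Cth fell by 0.91 from C1 to C2 (99% interval -1.30 to -0.53, adjusted p = 1.75e-05) and by 0.83 by its other probe (adjusted p = 7.09e-05). With the median over all gene probes or in the authors' table the difference was -0.60 and missed the threshold (adjusted p = 0.012 for each).

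Shmt1, the cytosolic serine hydroxymethyltransferase that loads folate with a carbon unit from serine, had no valid probe because it was seen on only 3 C2 arrays. Its brighter probe read -1.66, -1.62, -2.10, -1.94 and -1.61 at NC1, -1.66, -2.00, -1.82, -1.89 and -1.65 at C1, and -3.81, -3.06, -4.06, -3.96 and -4.23 at C2. The prophase I stages overlapped and every C2 array lay below them. The mean difference of -2.02 between C2 and C1, with 2 C2 arrays not well above background, was not tested. The dimmer probe, seen on 5, 3 and 3 arrays of the stages, gave -0.49.

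**Figure D3:**
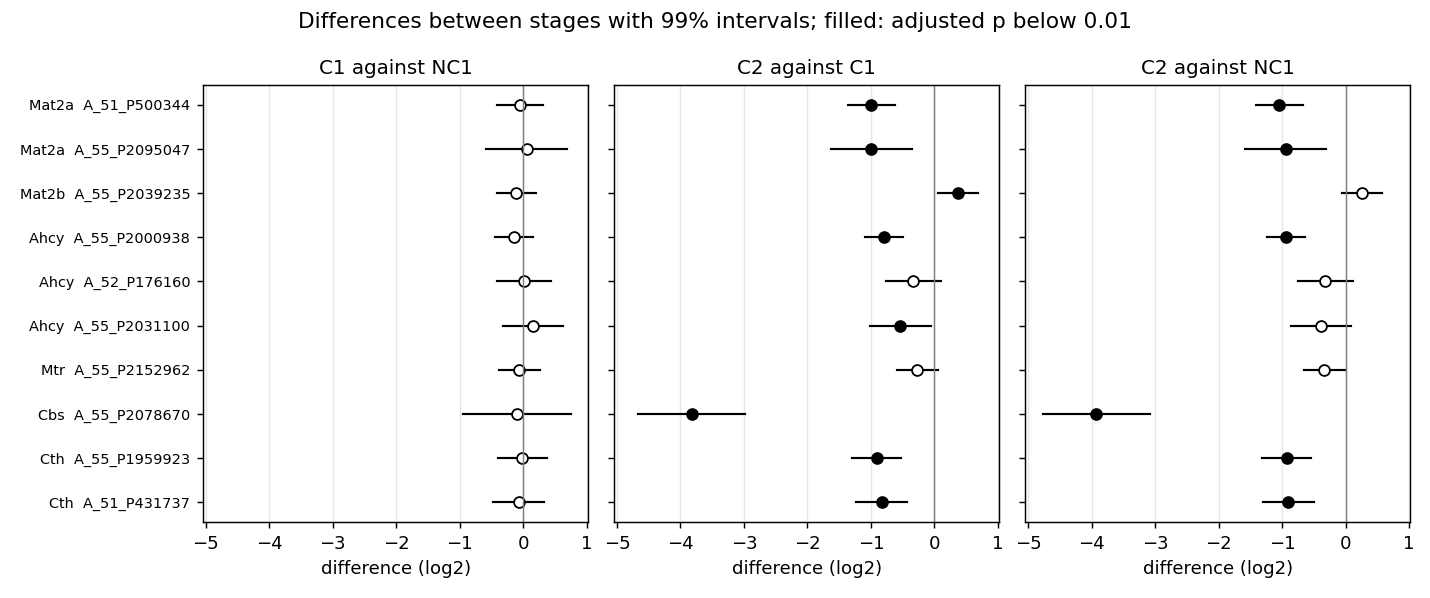
Log2 differences between stages for the valid probes of the listed genes other than Bhmt (points) with their 99% intervals (lines) from 1 limma model over 15 arrays. Filled points have an adjusted p below 0.01 over all valid probes. No point is filled for C1 against NC1, and Cbs stands far to the left in both comparisons with C2.

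The listed genes were set in a wider group of 91 other genes of 1-carbon metabolism besides Bhmt, of which 73 had a valid probe. Between C1 and NC1, 2 of the 73 were called, beside 2.52% of all valid probes, and 16 had an unadjusted p below 0.05, beside 16.8% of all valid probes. Sardh, which demethylates sarcosine downstream of dimethylglycine, fell by 0.78 (adjusted p = 4.77e-03), and Ethe1, a mitochondrial enzyme of sulfide oxidation, rose by 1.04 (adjusted p = 2.63e-03). Sardh was lost without any of NC1 replicates 2, 4 and 5 or C1 replicates 1 to 4 and under 7 other settings, and Ethe1 under 7 settings, among them spike-in scaling (adjusted p = 0.0306) and the slide as a block (adjusted p = 0.0119). Without NC1 replicates 1 and 2 neither passed, with log2 differences of -0.82 for Sardh (adjusted p = 0.0196) and 0.90 for Ethe1 (adjusted p = 0.0301).

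From C1 to C2, 43 of the 73 genes passed the test, 16 rising and 27 falling, with a median log2 change of -0.21. Over all valid probes 47.6% passed, 4400 rising and 3853 falling, and the median change was 0.02. Between NC1 and C2 the counts were 42, with 16 higher and 26 lower, beside 51.5% of all valid probes, 4597 higher and 4319 lower. The split between higher and lower depended on the scaling. From C1 to C2 it was 18 higher and 11 lower with the median over all gene probes or in the authors' table, 12 and 30 with the 75th percentile, and 3 and 15 with spike-in scaling. Spike-in scaling also ended the calls of Ahcyl2, Shmt2 and Mmadhc from C1 to C2. The directions of single genes are given relative to the median valid probe.

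**Figure D4:**
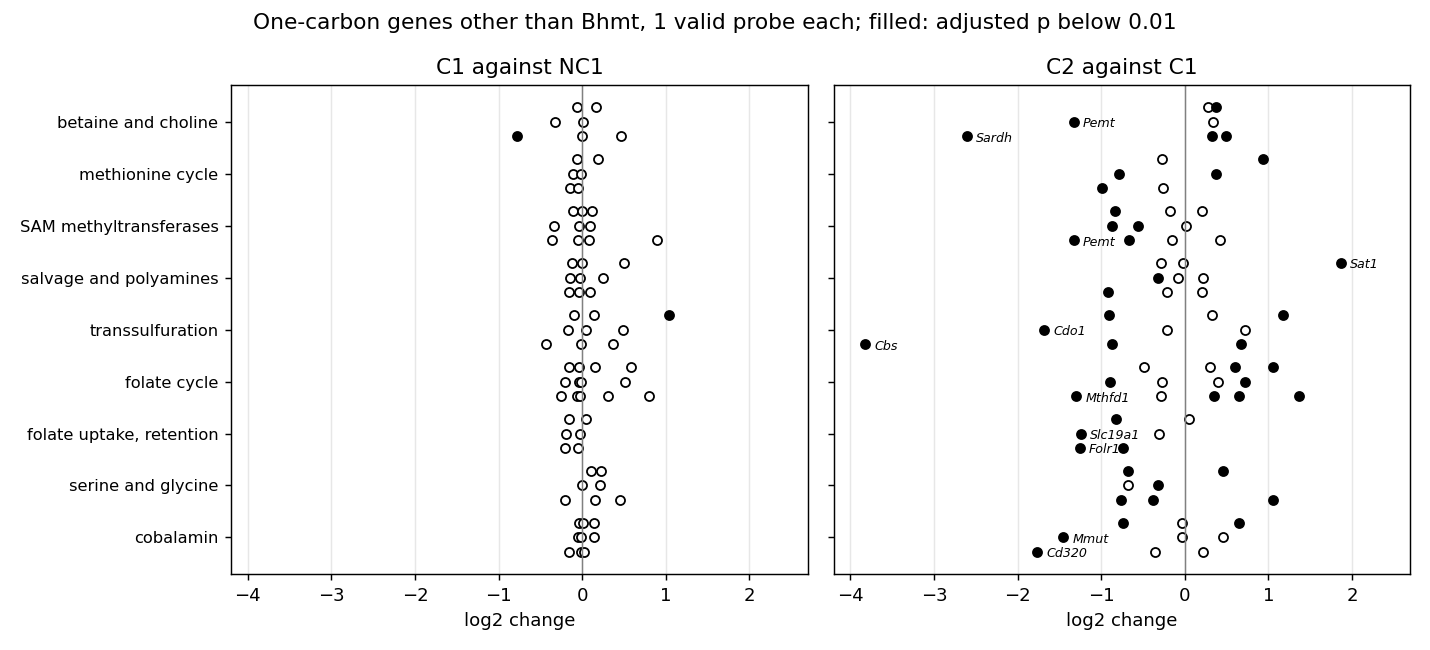
Log2 change of each valid gene of the 1-carbon lists other than Bhmt, from NC1 to C1 (left) and from C1 to C2 (right), 1 probe a gene, with lists as rows and points spread vertically within a row only for legibility. Filled points passed the test, and some of these changes are named. The left panel holds 2 filled points and the right panel 43 different genes, some of them in more than 1 list.

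The counts of single lists from C1 to C2 stand against the 47.6% of all valid probes called there, and several lie near that share. Of the betaine and choline list, 5 of 7 valid genes were called between C1 and C2, 3 higher and 2 lower. Sardh fell by 2.60 (adjusted p = 5.35e-10), and so did Pemt, which makes phosphatidylcholine with SAM, by 1.33 (adjusted p = 5.2e-08). Slc44a1 and Slc44a2, transporters of choline, rose by 0.49 (adjusted p = 1.08e-03) and 0.38 (adjusted p = 5.24e-03), calls lost under 3 and 12 of 31 alternative settings. Averaged over its probes, Slc44a1 gave 0.11 and did not pass (adjusted p = 0.375). Of the methionine cycle, 4 of 6 were called, 2 in each direction, and Ahcyl2, a relative of Ahcy, rose by 0.93 (adjusted p = 5.37e-08).

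All 5 of the 10 valid SAM-dependent methyltransferases called between C1 and C2, about the share over all valid probes, were lower at C2. Besides Pemt these were Dnmt1, the maintenance DNA methyltransferase, which fell by 0.87 (adjusted p = 1.35e-03), Tpmt, which methylates thiopurines, by 0.84 (adjusted p = 6e-05), Dnmt3b, which methylates DNA de novo, by 0.67 (adjusted p = 9.56e-05), and Icmt, which methylates prenylated proteins, by 0.55 (adjusted p = 6.19e-03). With the median over all gene probes the calls of Dnmt1 (-0.56, adjusted p = 0.0384), Tpmt (-0.53, adjusted p = 0.0308) and Dnmt3b (-0.36, adjusted p = 0.0789) were lost, as they were in the authors' table, and those of Tpmt and Dnmt3b also under spike-in scaling. The call of Icmt was not tested under other settings. Dnmt3a gave 0.02 (adjusted p = 0.915). Gamt, of the same list, gave 0.42 (adjusted p = 0.143) and was higher at C2 than at NC1 by 1.31 (adjusted p = 1.41e-04). Of the methionine salvage and polyamine list 3 of 9 were called, with Sat1, which acetylates polyamines for export and breakdown, rising by 1.87 (adjusted p = 1.45e-08) and Srm, spermidine synthase, falling by 0.92 (adjusted p = 1.49e-03), a call lost with the median over all gene probes (-0.61, adjusted p = 0.056), under spike-in scaling and without C2 replicates 4 and 5.

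In the transsulfuration list, 6 of 9 genes were called between C1 and C2, 2 higher and 4 lower. Cdo1, which oxidizes cysteine toward taurine, fell by 1.68 (adjusted p = 1.78e-05) beside Cbs and Cth. Tst, a sulfurtransferase of mitochondria, rose by 1.17 (adjusted p = 8.24e-07). Sqor, the first enzyme of sulfide oxidation, rose by 0.68 (adjusted p = 3.22e-04), a call that was not tested under other settings.

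Genes of the folate cycle were called in both directions, 6 higher and 2 lower of 13. Shmt2, the mitochondrial counterpart of Shmt1, rose by 1.06 (adjusted p = 7.7e-07). Mthfd1, a cytosolic enzyme with several folate activities, fell by 1.30 (adjusted p = 3.95e-09). Folate uptake and retention genes were called in 4 of 6 cases, all lower at C2. The receptor Folr1 fell by 1.25 (adjusted p = 3.08e-05), the carrier Slc19a1 by 1.24 (adjusted p = 1.69e-06), the hydrolase Ggh by 0.83 (adjusted p = 1.23e-04) and Fpgs, which traps folate in the cell as polyglutamate, by 0.74 (adjusted p = 9.65e-04). With the median over all gene probes and in the authors' table Ggh and Fpgs missed the threshold, and Fpgs also under spike-in scaling and without C2 replicates 4 and 5.

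Of serine and glycine metabolism, 6 of 7 genes were called, 2 higher and 4 lower, with Psat1 of serine synthesis falling by 0.68 (adjusted p = 1.57e-04) and Psph of the same pathway rising by 0.45 (adjusted p = 1.53e-03). Psat1 lost its call with the median over all gene probes (-0.37, adjusted p = 0.133) and under spike-in scaling, and Psph under spike-in scaling. Of cobalamin handling, which supplies the cofactor of MTR, 4 of 9 were called, 1 higher and 3 lower. Cd320, the receptor for cobalamin uptake, fell by 1.76 (adjusted p = 1.09e-09), Mmut, the mitochondrial enzyme that uses cobalamin, fell by 1.46 (adjusted p = 2.75e-08), and Mmadhc, which directs cobalamin in the cell, rose by 0.65 (adjusted p = 6.25e-05).

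Of 12679 other genes with a valid probe, those whose levels over the 15 arrays were most like Bhmt by Pearson correlation were Prlr (r = 0.959), Myo7a (0.940), Oxtr (0.940), Gstm6 (0.928), Pcx (0.924), Sez6l2 (0.919), Plch2 (0.918) and Lrrn1 (0.890). These values describe likeness over arrays that share stage, slide and scaling. Prlr, the prolactin receptor, read 0.27, 0.27, 0.93, 0.32 and 0.48 at NC1, 3.76, 3.80, 2.84, 3.10 and 3.93 at C1, and 2.32, 2.08, 2.40, 1.82 and 1.57 at C2. Oxtr, the oxytocin receptor, had stage means of -0.04 ± 0.58, 2.82 ± 0.80 and 0.78 ± 0.48. Pcx, pyruvate carboxylase, had means of 0.96 ± 0.14, 1.96 ± 0.28 and 1.42 ± 0.32. All 8 had their lowest mean at NC1 and their highest at C1, an order that their choice by likeness to Bhmt favours. No listed gene was among them, the nearest having r = 0.117 and rank 3437.

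**Figure D5:**
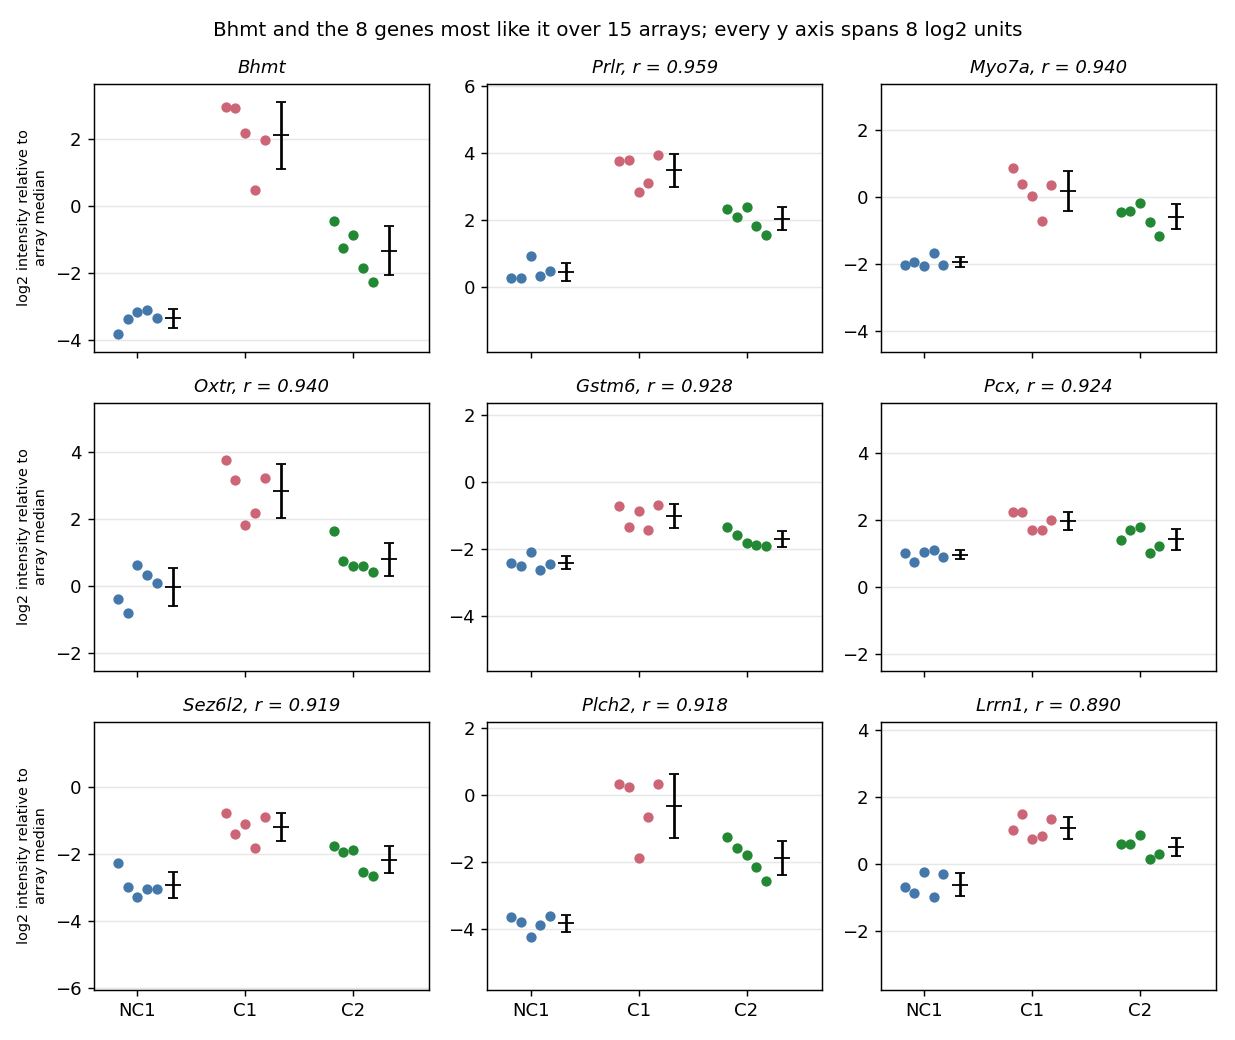
Levels of Bhmt (brightest probe) and of the 8 genes most like it, as log2 intensity relative to the median valid probe, on the 5 arrays of each stage in replicate order, with means and SDs as black bars and every vertical axis spanning 8 log2 units. The 8 genes were chosen by their likeness to Bhmt. All 9 genes are lowest at NC1 and highest at C1, and Bhmt has the widest range.

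Markers of luteinizing cells moved with Bhmt between NC1 and C1. Of 12 listed, which include Prlr, 9 were valid. Of these, 8 rose from NC1 to C1, beside 2.52% of all valid probes called there. The summed level of the list was 103 to 161 at NC1, 189 to 253 at C1 and 310 to 416 at C2. Between C1 and C2, 2 of the 9 valid markers rose and 1 fell, beside 47.6% of all valid probes called there. Akr1c18, which inactivates progesterone, had means of 1.92 at C1 and 7.08 at C2 and had by far the largest rise in the list, and Runx2 rose by 1.09 (adjusted p = 2.58e-05). Prlr fell by 1.45. Hsd17b7 gave -0.90 (adjusted p = 0.0579), and the markers without a valid probe gave -2.83 for Lhcgr (seen on 3 C2 arrays), -1.67 for Ptgfr and -1.05 for Star. C1 replicate 4, with the lowest Bhmt of its stage, had a summed level of 227 and a Prlr level of 3.10, each within the range of C1. The sum is linear, and Hsd3b1 was its brightest marker at NC1 and C1 (means 6.84 and 6.96). The sum of a C1 array therefore depends largely on Hsd3b1 and does not track the other markers. The part of luteinization in the Bhmt levels was not tested. The red blood cell markers summed to 73.5 to 439 at NC1 and to 10.5 to 43.6 at C1. Of 5 valid markers, 4 were lower at C1, beside the same 2.52% of all valid probes called. Of markers of hepatocytes, where BHMT is abundant, Alb and Cps1 were seen on no array, and the list summed to 2.06 to 3.10 at NC1, 2.35 to 3.03 at C1 and 0.156 to 0.567 at C2.

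After ovulation the levels of markers of other cells also moved. The counts below stand beside the 47.6% of all valid probes called between C1 and C2. Markers of oviduct epithelium summed to 7.46 to 12.3 at C1 and 25 to 30.4 at C2, with 4 of 6 valid markers called, 2 higher and 2 lower, and Pax8 on no array. The keratins Krt8 and Krt18 gave 1.3 and 1.8, whereas Epcam gave -1.05 and Tppp3 -1.01. Ovgp1 gave 2.28 and was not called (adjusted p = 0.0343, limma). Tekt1, without a valid probe, gave -2.31. All 6 valid theca and stroma markers fell between C1 and C2, with summed levels of 11.8 to 17.7 and 0.86 to 1.15. Of 12 oocyte markers, 4 were valid and 1 of these fell, and the list summed to 12.9 to 40.4 at C1 and 0.715 to 17.1 at C2, with Ooep on no array. Markers that reached background at C2 were not valid and not tested. Among them, Zp1 gave -5.47, Zp2 -4.67, Zp3 -5.83 and Nlrp5 -4.64 between C2 and C1, without overlap of the stages. Bmp15 gave -2.39, Oosp1 -2.30 and Dazl -0.79, with overlap and no valid probe. The valid markers Gdf9 (-1.95, adjusted p = 0.047, limma), H1f8 (-2.50) and Mos (-0.68) also overlapped and were not called. Leukocyte markers summed to 3.89 to 5.05 and 3.91 to 5.74, with Cd79a on no array and none of 3 valid markers called. Others had no valid probe and were not tested. Of these, Adgre1 was seen on 3 C1 and 5 C2 arrays, Ptprc on 1 and 4, and Lyz2 on 2 and 3. Of 10 cumulus and granulosa markers, 8 fell between C1 and C2, as Cbs did. The others, Foxl2 at 0.03 (adjusted p = 0.908, limma) and Nr5a1 at 0.64 (adjusted p = 0.0133), were not called. The part of these lists in the changes of the 1-carbon genes was not tested.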

How the data were processed

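RNA from 15 pools of mouse cumulus cells was hybridised by the authors to 1-colour Agilent arrays, 5 pools at each of 3 stages. The deposited scanner files hold intensity values of 44397 spots, processed and background-subtracted by Agilent Feature Extraction (10.7.1.1 per the file headers, 10.5.1.1 in the submitters' processing notes). The authors also deposited a table of normalized log2 values of 20855 probes, which differed from the scanner values only by an array constant and rounding (SD of the difference at most 0.00742) and served as an alternative. The deposited genome coordinates were not used here.

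Processed signals were averaged over the spots of a probe without those flagged as outliers, taken to log2 and centred on the array's median over 17323 valid probes, of 39429 gene probes. No gene spot was saturated (0 of 43020). Probes were named through their accession in RefSeq (26055 probes) or else by the authors' symbol (2770), and 10604 had no name. A gene was represented by its valid probe with the highest mean, and the other probes of listed genes are given where they differ. Stages were compared with limma 3.58.1 in R 4.3.3, in 1 model of stage over all 15 arrays, with the Benjamini-Hochberg adjustment over all valid probes at 0.01 and 99% intervals. The script was tested on simulated data. Correction by normexp used the median spot and background signals (offset 50), since the deposited files hold no mean signal. Figures were drawn with matplotlib 3.10.9.

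The members and lists were chosen with earlier results of these data known. Genes named in the text are all listed members, list genes that were called in a comparison whose groups of arrays did not overlap (at most 4 a list and comparison, by size of change), the 3 genes on either side of Bhmt, and the 8 valid genes most correlated with Bhmt. Icmt, Dnmt3a, Sqor and the single cumulus, luteal, oocyte, oviduct, leukocyte and hepatocyte markers were added after their values were seen. So were the list genes described as not well above background. Precision is limited by having 5 arrays a stage, each of 1 pool. The alternatives were other background corrections, scalings, filters and probe rules, the authors' table, and slide or replicate number as a block. They also included leaving out each array, NC1 replicates 1 and 2 together, and C2 replicates 4 and 5 together. Leaving out these pairs had not been planned. Some genes of these lists are counted but not reported by name here.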

Additional observations from a re-analysis of the deposited data

Results flagged for a closer look

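In 2 of 33 groups of 5 arrays (1 probe of a listed gene at 1 stage), a single array stood apart from the others by Dixon's criterion, which chance alone reaches in about 1 of 20 groups. The Ahcy probe A_55_P2000938 read -0.17 on NC1 replicate 4, against 0.00 to 0.04 on the other NC1 arrays. The Cth probe A_55_P1959923 read -1.70 on C1 replicate 1, against -1.45 to -1.35 on the other C1 arrays. The calls of both genes between C1 and C2 held when any single array was left out.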

How the results depend on the processing

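Of 67 called changes of named genes, 35 were called under all 31 alternatives, 32 were lost under at least 1, and none changed sign. Calls were lost most under spike-in scaling (27), with the median over all gene probes (17) and in the authors' table (17). For 1-carbon genes called between C1 and NC1 (2), the count was 0 under spike-in scaling, with the median over all gene probes, in the authors' table, without the filter on dim probes, with the slide as a block, without moderated variances and without NC1 replicates 1 and 2, and 1 with the replicate block or with 2 stages in the fit. It was 1 to 3 when single arrays were left out. Between C1 and C2, 3 listed genes were called with the median over all gene probes and in the authors' table, and 4 to 5 without single arrays. The 43 1-carbon genes called there became 18 under spike-in scaling, 37 to 43 without single arrays and 36 without C2 replicates 4 and 5. The 42 called between NC1 and C2 became 22 under spike-in scaling, 39 to 43 without single arrays and 36 without NC1 replicates 1 and 2. The log2 difference of Bhmt between C1 and NC1 was 4.55 after normexp background correction.

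Changes of sign occurred among differences that were not called. Between C1 and NC1, spike-in scaling gave log2 differences of 0.097 for Mat2a, 0.039 for Mat2b, 0.006 for Ahcy, 0.083 for Mtr, 0.048 for Cbs and 0.133 for Cth. Averaging probes gave 0.002 for Mat2a and 0.007 for Ahcy, and 75th percentile scaling gave 0.002 for Cth. Without NC1 replicates 1 and 2 the difference was 0.102 for Mat2a and 0.043 for Cth. Leaving out 1 array gave -0.114 to 0.029 for Mat2a, -0.192 to 0.076 for Cbs and -0.085 to 0.047 for Cth. Between C1 and C2, Mtr was 0.04 with the median over all gene probes and 0.039 in the authors' table, and it passed the test under 75th percentile scaling (-0.39). Between NC1 and C2, Mtr passed under 75th percentile scaling (-0.43) and without NC1 replicate 3 (-0.39) or C2 replicate 2 (-0.40). The cause of these changes was not tested.

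The labels give each stage replicates 1 to 5 but no shared source, and the deviations of same-numbered arrays from their stage means correlated between -0.24 and 0.35, so the numbers were not taken as pairs. With the replicate block, the counts of listed genes were 0, 4 and 4 and those of 1-carbon genes 1, 38 and 43 for C1 against NC1, C2 against C1 and C2 against NC1, and Mat2b missed the threshold between C1 and C2 (adjusted p = 0.016). Bhmt2, seen on no array, and Shmt1, seen on 3 C2 arrays, were not tested.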
